A study of Mus musculus with 6 samples.

Results

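Kupffer cells are the macrophages that reside in the sinusoids of the liver, where they clear bacteria, dying cells and spent blood cells from the portal blood. Their identity is known to depend on the growth factor receptor CSF1R, and mouse Kupffer cells carry surface receptors such as CLEC4F, VSIG4 and MARCO that bind glycans, complement fragments and microbes. Macrophages are also a main source of C1q, the recognition molecule that starts the classical complement pathway, and Kupffer cells secrete CD5L, a scavenger protein of blood. The 10 genes described here, Adgre1, Cd68, Clec4f, Cd5l, Marco, Vsig4, Csf1r, C1qa, C1qb and C1qc, were taken as a list of such markers, by gene symbol in the platform annotation. They are 10 of the 12393 genes that carried a single symbol, and 14 of the 22626 probe sets tested.

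The measurements came from livers of male C57BL/6J mice given source water to drink for 90 d, and from male C57BL/6J control mice of the same strain and duration given distilled water. Each group held 10 mice, of which 9 were used, and livers were combined in threes before RNA extraction, so that each group has 3 pools of 3 mice and 3 arrays. Neither group carried a genetic change, and the labels used here do not say where the source water was drawn. The values are log2 signals per probe set, normalized between arrays by the authors, and a probe set is a group of short probes that report the same transcript.

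Array medians lay between 5.79 and 5.86 log2 signal. The lowest and highest correlation between any pair of arrays were 0.985 and 0.994, taken over probe sets, whose values are not independent of each other. The liver label was borne out by hepatocyte genes, since albumin (Alb) had a log2 signal of 14.88, 14.92 and 14.90 in the source water pools and 14.95, 14.93 and 14.89 in the control pools. A whole liver is mostly hepatocytes by mass, and in such bulk RNA a lower number of macrophages and less RNA per macrophage cannot be told apart. The spread between arrays here is a spread between pools, and p-values measure only that.

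The start-site regions of some of the markers are shown first, because the C1q genes followed each other closely across the pools whereas Marco departed from the rest, and Vsig4 was the most even across the source water pools. Of the 10 genes, 7 matched the RefSeq promoter table (GRCm38.p6), with 250 bases before and 50 after the gene start. In the neighbour order of that assembly, C1qa, C1qc and C1qb lie side by side on chromosome 4. Capitals mark the letters GAGGAA on either strand (TTCCTC on the strand shown), the core of the purine-rich element bound by PU.1, a transcription factor of the myeloid lineage. The regions are chr4:136886151-136886450 on the minus strand for C1qb, chr4:136892865-136893164 on the minus strand for C1qc, chr1:120504975-120505274 on the minus strand for Marco and chrX:96293389-96293688 on the minus strand for Vsig4, each written 5′ to 3′ in the direction of the gene.
C1qb: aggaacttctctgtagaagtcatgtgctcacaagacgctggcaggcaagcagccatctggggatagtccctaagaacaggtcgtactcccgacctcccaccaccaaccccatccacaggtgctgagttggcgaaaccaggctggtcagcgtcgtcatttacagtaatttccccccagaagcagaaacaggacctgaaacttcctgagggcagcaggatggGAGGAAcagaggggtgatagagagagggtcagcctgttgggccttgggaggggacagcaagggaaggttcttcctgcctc
C1qc: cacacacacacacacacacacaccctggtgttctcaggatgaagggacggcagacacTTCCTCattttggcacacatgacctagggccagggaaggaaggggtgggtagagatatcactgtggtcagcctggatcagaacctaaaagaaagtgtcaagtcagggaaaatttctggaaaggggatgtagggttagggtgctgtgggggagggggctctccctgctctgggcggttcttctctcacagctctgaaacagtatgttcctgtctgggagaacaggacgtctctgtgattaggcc
Marco: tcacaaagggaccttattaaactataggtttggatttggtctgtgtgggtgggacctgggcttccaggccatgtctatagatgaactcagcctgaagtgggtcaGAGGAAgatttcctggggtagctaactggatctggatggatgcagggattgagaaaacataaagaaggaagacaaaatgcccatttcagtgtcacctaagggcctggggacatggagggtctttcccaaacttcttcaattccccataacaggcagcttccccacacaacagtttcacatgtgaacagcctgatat
Vsig4: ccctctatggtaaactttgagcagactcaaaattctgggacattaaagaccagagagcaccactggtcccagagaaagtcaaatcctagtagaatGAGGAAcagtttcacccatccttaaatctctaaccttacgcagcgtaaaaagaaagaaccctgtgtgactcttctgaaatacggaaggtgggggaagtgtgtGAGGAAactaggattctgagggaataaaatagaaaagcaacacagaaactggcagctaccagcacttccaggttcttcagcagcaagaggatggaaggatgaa

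GAGGAA was found in 6 of the 7 marker regions, those of C1qb, C1qc, Marco, Vsig4, Cd5l and Cd68, and in 28.3% of all 32851 regions of the same length. Its first base lay 30 bases before the start in C1qb, 193 in C1qc, 146 in Marco, and 155 and 53 in Vsig4. The other element searched, TGANTCA, bound by AP-1 factors and identical to its own reverse complement, was found in 1 of the 7, that of Cd68 with 2 copies, and in 7.81% of all regions. The regions of Adgre1, Csf1r and C1qa were not searched. A match of letters describes the sequence and is not a measured binding site.

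The comparison asked whether resident macrophage transcripts differed in the livers of mice that drank source water. None of the 14 probe sets passed the test, and for all 10 genes the log2 signals of the source water pools overlapped those of the control pools. Means were higher in source water for 8 of the 10 genes, by up to 1.35-fold (Cd68), and lower for Cd5l and Marco. Pools of the same group differed in a similar way for most of the genes. Control pool 3 had the highest control signal for 10 of 10 genes, against 25.9% of all genes, and source water pool 2 had the highest source water signal for 9 of 10, against 35.7% of all genes. The range between the 3 control pools was larger than the difference between the group means for all 10, as it was for 85.3% of all genes.

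The test was limma, and p-values were adjusted for all 22626 probe sets by the Benjamini-Hochberg method. It called 0 of the 14 marker probe sets at an adjusted p of 0.05, against 0.0398% of all probe sets, and 0 of the 10 genes at an unadjusted p under 0.05, against 6.76% of all genes. Groups did not overlap for 0 of 10 markers, against 11.5% of all genes. The share with a higher mean in source water was 49.5% among all genes, and the median log2 difference was 0.27 over the 10 markers and 0.00 over all genes. These 10 differences come from the same 6 arrays and are not independent of each other.

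**Figure D1:**
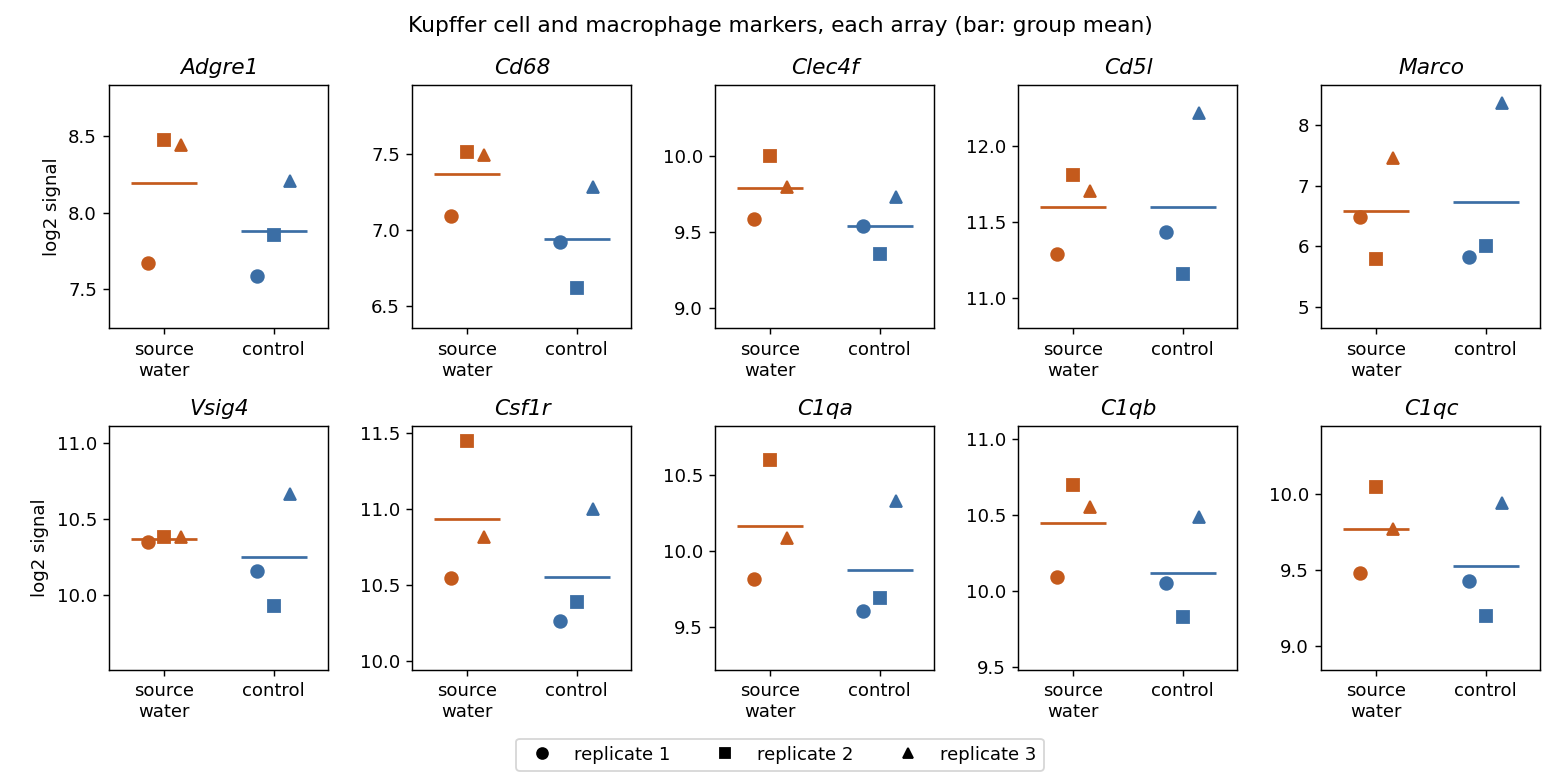
Log2 signal (y axis) of each of the 10 markers in every pool, source water at the left and control at the right of each panel, with a bar at the group mean and marker shapes for the replicate number. The groups overlap in all 10 panels, and control pool 3 (blue triangle) is the highest control in each; the y axis spans a wider range for Marco than for the others.

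Csf1r encodes the receptor for CSF1 and IL-34, on which macrophage survival depends. Its representative probe set had a log2 signal of 10.55, 11.44 and 10.81 in source water pools 1, 2 and 3, and of 10.26, 10.39 and 10.999 in control pools 1, 2 and 3. Source water pool 2 was the highest of all, and control pool 3 lay above source water pools 1 and 3. The means were 10.93 ± 0.46 in source water and 10.55 ± 0.39 in control (SD, n = 3 each), and the log2 difference was 0.38 ± 0.26 (SE), with a 95% confidence interval of -0.22 to 0.99 (limma adjusted p = 0.988). The other probe sets of Csf1r gave log2 differences of 0.42 ± 0.23 and 0.27 ± 0.19 (SE), and source water pool 2 was the highest array in these as well.

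Among surface receptors, Adgre1 encodes an adhesion G protein-coupled receptor by which mouse macrophages are commonly stained. Its log2 signal was 7.67, 8.48 and 8.44 in source water pools 1, 2 and 3, and 7.58, 7.85 and 8.21 in control pools 1, 2 and 3. Source water pool 1 lay with the lower controls, and the other source water pools lay above all controls. The log2 difference was 0.32 ± 0.24 (SE), with an interval of -0.24 to 0.87 (limma adjusted p = 0.999).

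Clec4f encodes a C-type lectin that in mice is restricted to Kupffer cells. It had a log2 signal of 9.58, 10.00 and 9.79 in source water pools 1, 2 and 3, and of 9.54, 9.36 and 9.73 in control pools 1, 2 and 3. Source water pools 2 and 3 lay above all controls, and source water pool 1 lay below control pool 3. Clec4f had the narrowest range over the 6 pools among the 10 markers, 0.64 on the log2 scale or 1.56-fold. The log2 difference was 0.25 ± 0.15 (SE), with an interval of -0.09 to 0.59 (limma adjusted p = 0.972).

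Vsig4, the complement receptor CRIg that captures C3-coated particles, had a log2 signal of 10.34, 10.38 and 10.38 in source water pools 1, 2 and 3. Its control pools 1, 2 and 3 had 10.16, 9.92 and 10.66. The source water pools thus lay within 0.04 of each other and inside the control range, which spanned 0.74. The log2 difference was 0.12 ± 0.18 (SE), with an interval of -0.30 to 0.53 (limma adjusted p = 0.999).

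Marco encodes a class A scavenger receptor that binds bacteria. Its log2 signal was 6.48, 5.79 and 7.46 in source water pools 1, 2 and 3, and 5.83, 6.01 and 8.36 in control pools 1, 2 and 3. Control pool 3 was the highest and source water pool 2 the lowest of all, although pool 2 was the highest source water pool for the other 9 genes. Over the 6 pools the signal of Marco ranged 5.94-fold, against 1.56-fold to 2.26-fold for the other markers. Its pooled within-group SD of 1.16 was larger than that of 99.8% of all genes, and the log2 difference of -0.16 ± 0.67 (SE) had an interval of -1.70 to 1.39 (limma adjusted p = 0.999).

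Of the remaining macrophage products, Cd68 encodes a lysosomal glycoprotein. It had a log2 signal of 7.09, 7.51 and 7.49 in source water pools 1, 2 and 3, and of 6.92, 6.62 and 7.28 in control pools 1, 2 and 3. Every source water pool lay above control pools 1 and 2, and control pool 3 lay above source water pool 1. The log2 difference, the largest among the 10 genes, was 0.43 ± 0.19 (SE) with an interval of -0.01 to 0.87 (limma adjusted p = 0.839). The exact two-sided permutation test over arrays gave p = 0.2, where 0.1 is the smallest that 3 arrays against 3 allow.

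Cd5l encodes the secreted scavenger protein CD5L, also called AIM. Its log2 signal was 11.29, 11.81 and 11.70 in source water pools 1, 2 and 3, and 11.43, 11.15 and 12.21 in control pools 1, 2 and 3. Control pool 3 lay above every source water pool, as it also did for Marco and Vsig4. The group means, 11.60 ± 0.28 in source water and 11.60 ± 0.55 in control (SD, n = 3 each), were equal to 2 decimals, and the interval of the log2 difference was -0.61 to 0.61 (limma adjusted p = 0.9997).

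C1qa, C1qb and C1qc encode the 3 chains that assemble into C1q. C1qa had a log2 signal of 9.81, 10.60 and 10.08 in source water pools 1, 2 and 3, and of 9.60, 9.69 and 10.33 in control pools 1, 2 and 3. C1qb had 10.09, 10.70 and 10.55 in those source water pools, and 10.05, 9.83 and 10.48 in those control pools. C1qc had 9.48, 10.05 and 9.77 in the source water pools, and 9.43, 9.20 and 9.94 in the control pools.

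The chains followed one course: source water pools 2 and 3 and control pool 3 were the 3 highest arrays for each, and the groups overlapped for each. Measured as deviations from each gene's own mean, the chains lay within 0.04 to 0.20 of each other on the log2 scale in every pool, while each ranged by 0.849 to 0.995 across pools. The log2 differences were 0.29 ± 0.25 for C1qa, 0.32 ± 0.21 for C1qb and 0.24 ± 0.21 for C1qc (SE), with limma adjusted p-values of 0.999, 0.979 and 0.999. The other probe sets of C1qb differed by 0.38 ± 0.25 and 0.53 ± 0.30 (log2, SE), and their suffix marks probes that may also bind other transcripts.

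**Figure D2:**
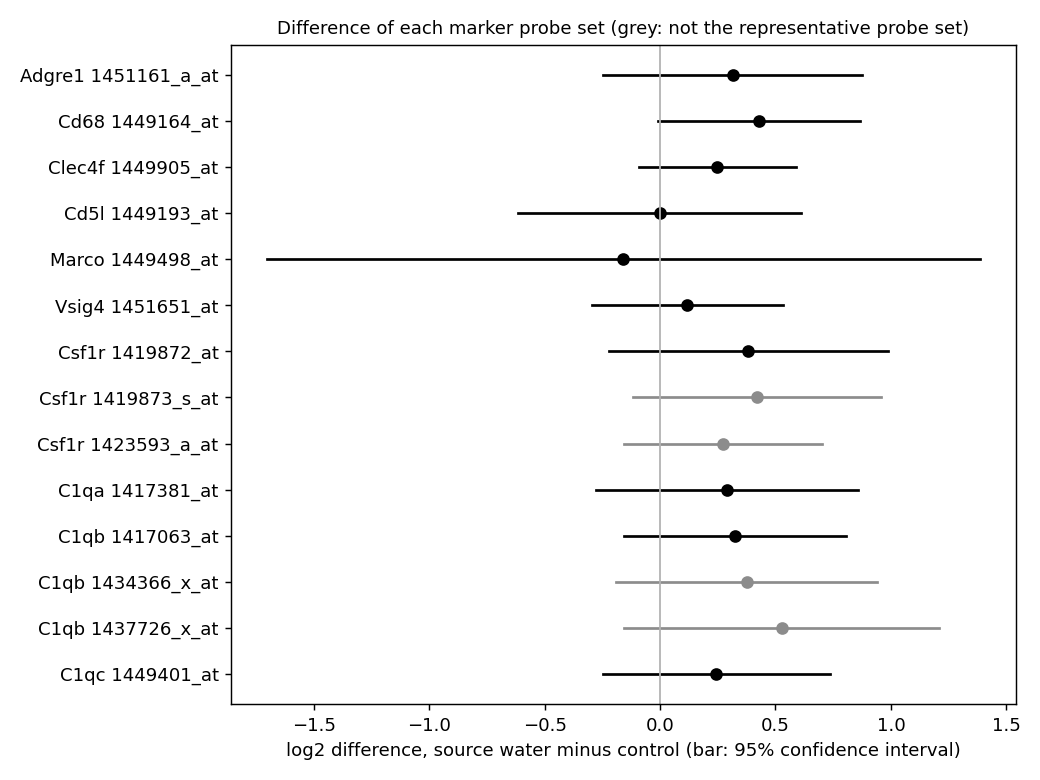
Log2 difference, source water minus control (x axis), of the 14 probe sets of the markers (rows), with 95% confidence intervals from limma; black rows are the probe set that represents a gene and grey rows are its others. Every interval includes 0, and that of Marco is the widest, from -1.70 to 1.39.

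Seen by pool, most markers were high or low in the same arrays, and each group held arrays of both kinds. Their median deviation from each gene's mean was -0.19, 0.38 and 0.13 (log2) in source water pools 1, 2 and 3, and -0.23, -0.42 and 0.28 in control pools 1, 2 and 3. In source water pool 3, 10 of 10 markers were above their own mean, in source water pool 2 it was 9 and in source water pool 1 it was 1, while in control pools 1, 2 and 3 the counts were 0, 0 and 10. The 3 highest arrays were source water pools 2 and 3 and control pool 3 for 9 of the 10 genes, the exception being Marco. That set of pools was singled out after the values were seen, and 5.10% of all genes had the same 3 highest arrays.

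The median within-group SD was 0.36 over the markers and 0.16 over all genes (log2), and the median range among control pools was 0.73 for the markers and 0.30 for all genes. Clec4f, with an SD of 0.20, had the smallest, above that of 64.3% of all genes.

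**Figure D3:**
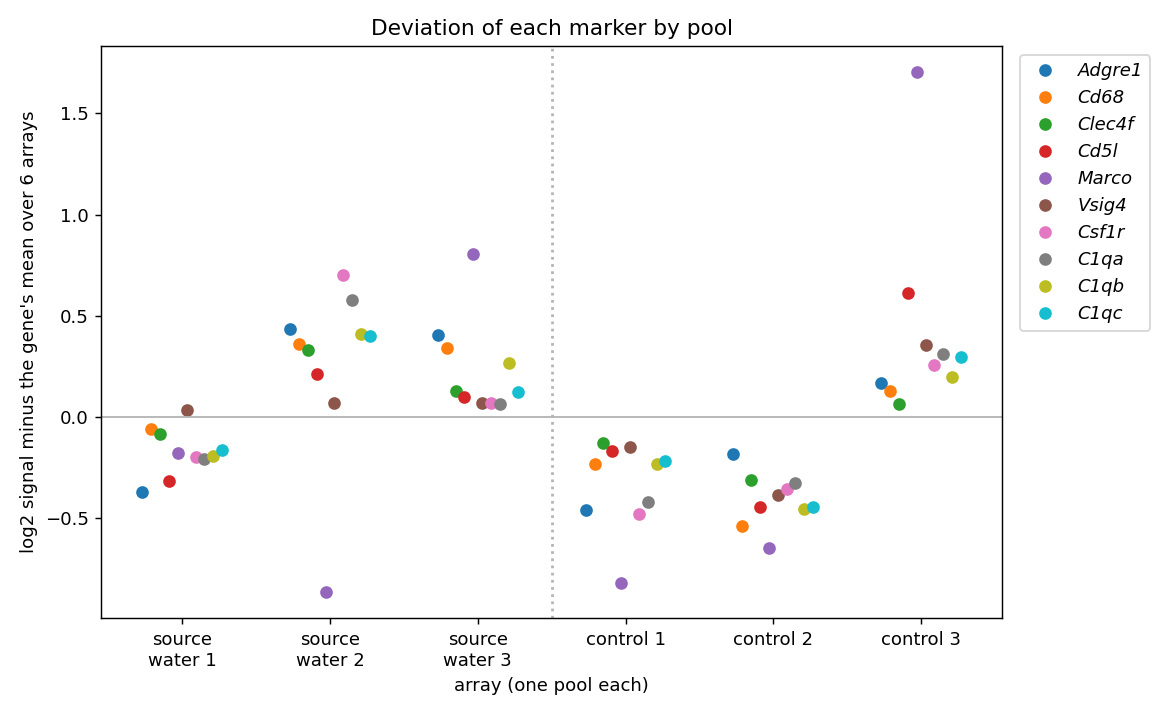
Deviation of each marker from its own mean over the 6 arrays (y axis, log2) in every pool (x axis), source water pools at the left and control pools at the right; each colour is a gene. Source water pool 3 and control pool 3 have all 10 points above 0, control pools 1 and 2 have all 10 below 0, and Marco is the gene that lies apart, at 1.70 in control pool 3 and -0.86 in source water pool 2.

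Single pools moved the comparison. Without control pool 3, all 10 markers were higher in source water, by 0.31 to 0.65 (log2), the median difference was 0.49, and 5 of 10 had an unadjusted p under 0.05 (Cd68, Vsig4, Csf1r, C1qb and C1qc), where 6.62% of all genes did. The smallest limma adjusted p among the markers was then 0.680, so 0 passed. Control pool 3 was the highest control for 10 of 10 markers, against 25.9% of all genes, so leaving it out had to raise every marker difference. Without source water pool 1, 3 of 10 had an unadjusted p under 0.05 (Adgre1, Cd68 and C1qb), against 5.34% of all genes, the median was 0.43, and the smallest adjusted p was 0.895. That pool was the lowest source water pool for 9 of 10 markers, so for these a rise was built in as well. Most markers moved together over the pools, so neither count can be read as an excess over the share of all genes. Without source water pool 2 the median was 0.14, without control pool 1 it was 0.18 and without control pool 2 it was 0.17, with 0 of 10 at an unadjusted p under 0.05 in each. The direction itself turned for some genes. The log2 difference of Cd5l ran from -0.22 without control pool 2 to 0.31 without control pool 3, that of Marco from -0.61 without control pool 1 to 0.65 without control pool 3, and that of Vsig4 from -0.04 without control pool 2 to 0.33 without control pool 3. It was also above 0 for Marco without source water pool 2 (0.23) and for Cd5l without source water pool 1 (0.15).

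**Figure D4:**
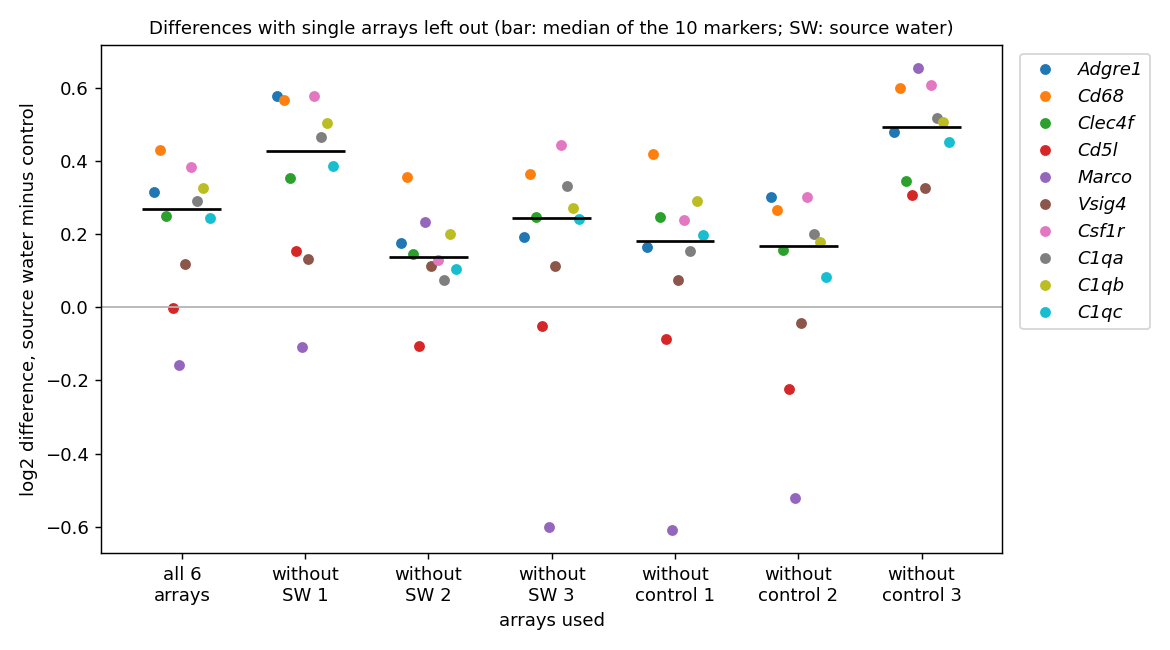
Log2 difference, source water minus control (y axis), of the 10 markers with all 6 arrays and with each array left out (x axis); points are genes and bars their median. The median runs from 0.14 without source water pool 2 to 0.49 without control pool 3, and without control pool 3 all 10 genes lie above 0.

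A further list of macrophage genes was compared in the same fit, and 31 of its 32 genes were measured. Of these, 23 had a higher and 8 a lower mean in source water, with 0 at an unadjusted p under 0.05 and a median log2 difference of 0.17. Lyz2, the macrophage and neutrophil lysozyme, differed by 0.21 ± 0.32, the endotoxin coreceptor gene Cd14 by 0.18 ± 0.19, the haemoglobin scavenger receptor gene Cd163 by -0.20 ± 0.45 and the folate receptor gene Folr2 by 0.10 ± 0.12 (log2, SE). The median deviations of this list were -0.16, 0.24 and 0.20 in source water pools 1, 2 and 3, and -0.19, -0.37 and 0.26 in control pools 1, 2 and 3, and 19 of the 31 genes had source water pools 2 and 3 and control pool 3 as their 3 highest arrays.

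Genes that act around the markers are given next. Of 21 ligands, receptors and transcription factors of the CSF1 receptor axis and of macrophage identity, 9 were higher and 12 lower, with 1 higher (Csf2rb) and 0 lower at an unadjusted p under 0.05. The CSF1R ligands Csf1 and Il34 differed by 0.08 ± 0.25 and -0.08 ± 0.12, the cytokine gene Csf2 by -0.003 ± 0.12 and its receptor gene Csf2ra by 0.19 ± 0.18 (log2, SE). Of 12 C1q partners and classical pathway genes, 7 were higher and 5 lower, and 1 (Calr) had an unadjusted p under 0.05 and was higher. The protease genes C1ra and C1s1, which complete the C1 complex, differed by 0.07 ± 0.11 and -0.02 ± 0.11, the C2 gene by -0.05 ± 0.17 and the C1 inhibitor gene Serping1 by 0.10 ± 0.11. The 3 highest arrays were source water pools 2 and 3 and control pool 3 for 1 of the 21 and 1 of the 12 genes.

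Among 26 other scavenger, lectin and complement receptor genes, 12 were higher and 14 lower, with Stab2 higher and Clec2d lower at an unadjusted p under 0.05. Msr1, a class A scavenger receptor gene like Marco, differed by 0.47 ± 0.27, the fatty acid and lipoprotein receptor gene Cd36 by 0.55 ± 0.38 and the HDL receptor gene Scarb1 by 0.06 ± 0.20 (log2, SE). Of 23 genes of families related to the markers, 15 were higher and 8 lower, and Emilin1 and Lgals3bp were higher at an unadjusted p under 0.05. C1qtnf1 differed by 0.09 ± 0.14, C1qtnf3 by 0.02 ± 0.10, C1qtnf4 by 0.12 ± 0.15 and C1qtnf6 by -0.06 ± 0.12. Of 22 chemokine and cytokine genes, 13 were higher and 9 lower, and Arg1, which hepatocytes also express as a urea cycle enzyme, was lower at an unadjusted p under 0.05. Ccl2, the main monocyte attractant, differed by 0.01 ± 0.14, Ccl3 by -0.05 ± 0.15, Ccl4 by 0.13 ± 0.13 and Ccl5 by 0.26 ± 0.41. None of the genes in these lists passed the limma test over all probe sets, and the smallest adjusted p was 0.194 (Lgals3bp).

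Some genes of MHC class II antigen presentation were high in the same pools as the markers, and 5 of the 9 measured had source water pools 2 and 3 and control pool 3 as their 3 highest arrays. H2-Aa, a chain of MHC class II, had a log2 signal of 9.17, 12.08 and 10.81 in source water pools 1, 2 and 3, and of 9.17, 8.94 and 11.29 in control pools 1, 2 and 3. The median deviations over the 9 genes were -0.62, 1.08 and 0.45 in the source water pools and -0.55, -1.05 and 0.61 in the control pools, with the pools in the same order of high and low as for the markers, except that source water pool 1 and control pool 1 changed places. H2-Ea departed from that order, with 8.92, 10.14 and 9.30 in source water pools 1, 2 and 3, and 8.97, 7.45 and 8.27 in control pools 1, 2 and 3, so that control pool 3 lay below every source water pool. H2-DMb2 ranged only from 4.53 to 4.69 in source water and from 4.36 to 4.60 in control. H2-Ab1 and H2-Eb1 differed by 1.06 ± 0.81 and 0.79 ± 0.77 between the groups and H2-Ea by 1.22 ± 0.41 (log2, SE), with limma adjusted p-values of 0.999, 0.999 and 0.616. Of the 9 genes, 7 were higher and 2 lower, and only H2-Ea had an unadjusted p under 0.05. Of 26 interferon-induced genes, 21 were higher and 5 lower, and Ifit1, Usp18, Rsad2 and Lgals3bp were higher at an unadjusted p under 0.05. Ifit1 differed by 0.79 ± 0.27, Ifit2 by 0.08 ± 0.18, Ifit3 by 0.10 ± 0.29 and Irf7 by 0.20 ± 0.17 (log2, SE). The interferon list had median deviations of -0.03, 0.22 and 0.08 in source water pools 1, 2 and 3 and -0.36, -0.20 and 0.19 in control pools 1, 2 and 3. For 9 of the 26 interferon-induced genes the 3 highest arrays were source water pools 2 and 3 and control pool 3.

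Markers of other liver and blood cells were summed in the same way. Summed linear signals of the 10 macrophage markers ran from 9191 to 13586 in the source water pools and from 7964 to 13751 in the control pools, while those of 11 hepatocyte markers ran from 233261 to 239707 and from 233698 to 243517. The sums of 9 monocyte markers ran from 6872 to 7254 in source water and from 6202 to 7899 in control, but Fn1, the fibronectin gene that hepatocytes also express, made up 92.3% of that sum. Without Fn1 the monocyte sums ran from 527 to 657 in source water and from 438 to 548 in control, with control pool 2 lowest and control pool 3 highest among the controls. The brightest gene left was Plac8, at 8.43, 8.89 and 8.81 (log2) in source water pools 1, 2 and 3. Plac8 had 8.24, 8.01 and 8.56 in control pools 1, 2 and 3. The other genes left had a mean log2 signal under 6, so the order of these sums is largely that of Plac8. The sums of 10 neutrophil markers ran from 415 to 640 and from 385 to 602, with the highest control value in control pool 2, where the macrophage markers were lowest. The sums of 15 sinusoidal endothelial markers ran from 5038 to 5815 in source water and from 4501 to 5854 in control, again with control pool 2 lowest and control pool 3 highest among the controls. Sums were 385 to 427 and 369 to 437 for 13 T and NK cell markers, 535 to 690 and 496 to 654 for 8 B cell markers, and 227 to 244 and 238 to 264 for 8 dendritic cell markers, source water before control in each. They were 174 to 198 and 183 to 213 for 6 bile duct markers, and 1015 to 1307 and 1030 to 1291 for 5 erythroid markers. Single genes carried most of the B cell sum (Ighm, 58.4%) and the erythroid sum (Alas2, 67.9%). Without them the sums were 233 to 254 and 218 to 265 for B cell markers, and 296 to 342 and 392 to 493 for erythroid markers. A mean log2 signal under 6 was found for 13 of the 13 T and NK cell markers, 7 of the 9 monocyte markers and 0 of the 10 macrophage markers. It was also found for 7 of the 10 neutrophil, 7 of the 8 dendritic cell, 6 of the 8 B cell and 6 of the 6 bile duct markers. Among erythroid, sinusoidal endothelial and hepatocyte markers it was 2 of 5, 2 of 15 and 0 of 11. The part of these cell types in the pool pattern was not tested, and no marker was listed at 0.

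Within those cell type lists a few genes had an unadjusted p under 0.05 and none passed the limma test. In the B cell list Cd79b was higher, and in the erythroid list Klf1 and Car1 were lower. Stellate cell markers had 3 higher (Col1a2, Col3a1 and Lum) and 1 lower (Lrat) of 14, with log2 differences of 0.50 ± 0.13 for Col1a2, 1.33 ± 0.27 for Col3a1 and -0.27 ± 0.10 for Lrat, and Col1a1 differed by -0.04 ± 0.11 (SE). Their summed signals ran from 4100 to 4885 in source water and from 3191 to 4036 in control. Without Col3a1, 5.53% of the sum, they overlapped, at 3850 to 4419 in source water and 3098 to 3886 in control. Without Dcn, the brightest gene at 39.9% of the sum, they did not overlap, at 2453 to 3101 in source water and 2024 to 2347 in control. Stab2, an endothelial scavenger receptor gene, differed by 0.39 ± 0.11, and the endothelial genes Lyve1, Clec4g and Kdr by -0.23 ± 0.47, 0.23 ± 0.13 and -0.23 ± 0.19. Plac8 was the monocyte marker with an unadjusted p under 0.05 (0.44 ± 0.18), whereas Ccr2, Cx3cr1 and Chil3 differed by 0.09 ± 0.16, -0.01 ± 0.13 and 0.15 ± 0.12. The neutrophil genes S100a8 and S100a9 differed by 0.16 ± 0.34 and 0.27 ± 0.41, and the T cell genes Cd3d, Cd3e and Cd3g by -0.08 ± 0.10, -0.02 ± 0.15 and 0.04 ± 0.13.

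**Figure D5:**
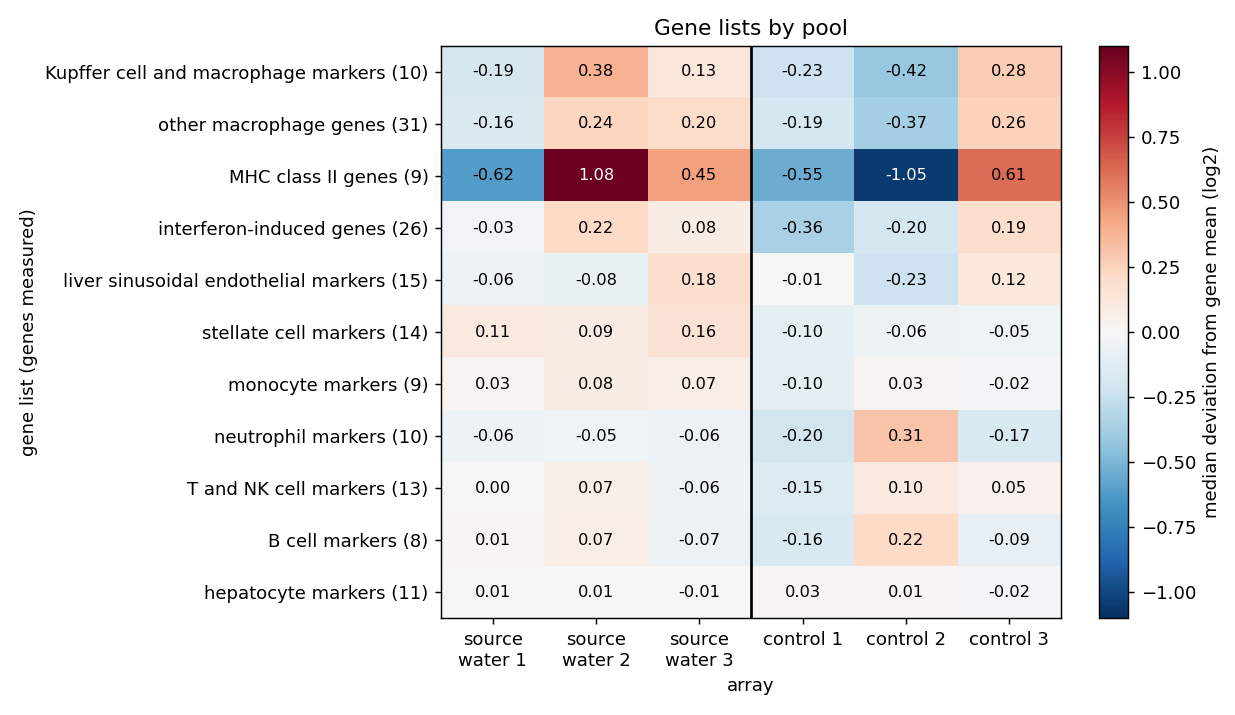
Median deviation of the genes of each list (rows, number of genes measured in brackets) from their own means (log2, colour and printed value) in every array (columns), source water pools left of the line and control pools right of it. The macrophage markers, the other macrophage genes, the MHC class II genes and the interferon-induced genes have medians above 0 in source water pools 2 and 3 and control pool 3. Hepatocyte markers stay within 0.03 of 0.

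The genes outside the list whose pattern over the 6 arrays lay nearest to the median marker profile were found by root mean square difference of centred log2 signals, among 6186 genes above the median level. They were Fcer1g (0.06), Cfp (0.07), Gimap4 (0.07), Tmsb4x (0.08), Clec4a2 (0.10) and Adgre5 (0.11). Among the markers the same distance was 0.02 for C1qc, 0.07 for C1qb, 0.11 to 0.20 for Clec4f, C1qa, Cd68, Vsig4, Cd5l, Csf1r and Adgre1, and 0.86 for Marco. The markers set the median profile themselves, so their distances cannot be compared on equal terms with those of genes outside the list. Fcer1g encodes the signalling chain of Fc receptors and Cfp encodes properdin, a complement protein made by myeloid cells. Fcer1g was also in the further list of macrophage genes, and Adgre5 among the genes of families related to the markers. Log2 differences between the groups were 0.23 for Fcer1g, 0.21 for Cfp, 0.13 for Gimap4, 0.25 for Tmsb4x and 0.07 for Clec4a2, with a limma adjusted p of 0.999 for each. That of Adgre5 was 0.245 (limma adjusted p = 0.979). These genes were picked for nearness to the marker profile over all 6 arrays, so group differences near those of the markers follow from that choice.

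In the authors' deposited table, 0 of the 14 marker probe sets had a p-value under 0.05. Values of p in the authors' deposited table ran from 0.0774 for Cd68 to 0.997 for Cd5l, and the ratios of source water over control from 0.896 for Marco to 1.44 for one C1qb probe set.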

How the data were processed

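Liver RNA of 3 source water pools and 3 control pools was hybridised to 6 Affymetrix mouse 3' expression arrays. The authors deposited log2 signals per probe set. RMA and Partek are the tools named in the submitters' processing notes, with no version. The authors' deposited comparison table gives, per probe set, group means, a p-value, the ratio and a signed fold change (a score), by a test that no source here names, and is quoted only as theirs.

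After removal of 64 control probe sets from 22690, 20380 of 22626 had 1 symbol in the platform annotation, 691 several and 1555 none. A gene was represented by its probe set with the highest mean. Groups were compared with limma 3.58.1 in R 4.3.3 (lmFit, eBayes, no covariate), with Benjamini-Hochberg adjustment. The fit was tested on simulated data. Arrays carry no read depth, so their number limits precision.

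The members and the 18 other gene lists were chosen with earlier results of these data known. The rule named all members, the first 4 measured genes of each other list and the 6 genes nearest to the marker profile. Some lists are given by their counts or sums with fewer names. Genes outside the rule were named after their values were seen. Alternatives of 9 kinds covered the replicate block, normalization, filters, variance model, probe set choice and arrays left out.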

Additional observations from a re-analysis of the deposited data

How the results depend on the processing

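All alternatives were planned, and under none did a marker probe set pass the adjusted threshold; the smallest limma adjusted p was 0.569, among probe sets with a mean of at least 6. In the main fit with all arrays, 0 of 10 markers had an unadjusted p under 0.05. The count was 1 (Cd68) under a replicate block and 1 (Cd68) when probe sets of a gene were averaged. Among all 12393 genes, 992 had an unadjusted p under 0.05 under the replicate block and 831 with averaged probe sets. The count for the markers was 0 to 5 when single arrays were left out. The median difference of 0.27 stayed at 0.25 to 0.29 under the other settings and ran from 0.14 to 0.49 with arrays left out. Deviations of same-numbered arrays from their group means correlated at -0.07, 0.28 and 0.17 for numbers 1, 2 and 3, which does not settle whether they are pairs. The labels do not say so, and the numbers were not taken as pairs. Over all 22626 probe sets, 45 passed the adjusted threshold with a replicate block and 9 without it. Of 140 recomputed marker differences, 134 kept their sign, but many could not turn. The replicate block, both level filters, limma-trend and the unmoderated statistic leave the difference itself unchanged. Averaging probe sets also leaves it unchanged for genes with a single probe set. Cd5l turned to 0.0149 with arrays centred on their medians, and ran from -0.22 to 0.31 with arrays left out, Marco from -0.61 to 0.65 and Vsig4 from -0.0437 to 0.327. Signal over background was not given in the files used here, so differences of dim probe sets may be understated.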
